A study of Mus musculus with 54 samples.

Results

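The transcripts described here are 10 genes that Yap and Taz are known to switch on, namely Ccn1 (older name Cyr61), Ccn2 (older name Ctgf), Ankrd1, Amotl1, Amotl2, Ajuba, Axl, Crim1, F3 and Nuak2. They were found by the NCBI gene number in each of the 27 tables deposited for the series, 15 of which set a cell line against wildtype and 12 of which set 2 days of 1 line against each other. All 10 were listed in all 27 tables, out of 19653 genes listed in at least 1 table and 15134 listed in every table.

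Yap and Taz are transcription coactivators that bind DNA through the Tead factors. The kinases of the Hippo pathway phosphorylate them and hold them in the cytoplasm, and stiff or stretched surroundings, low cell density and actin tension favour their entry into the nucleus. In myoblasts active Yap is known to favour proliferation over fusion into myotubes. Emerin, a protein of the inner nuclear membrane that binds lamins and actin, is one of the proteins that join the nucleus to the cytoskeleton, and its loss causes Emery-Dreifuss muscular dystrophy.

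The cells were H2K mouse myogenic progenitors, conditionally immortalised muscle precursors that grow in γ-interferon and form myotubes when serum is withdrawn. The 6 lines were wildtype, the emerin-null line EMD-/y, and 4 lines made from EMD-/y cells with lentivirus carrying wildtype emerin (+EMD) or the disease-causing emerin mutants S54F, Δ95–99 (a deletion of residues 95 to 99, in the labels del9599) and Q133H. RNA sequencing of polyadenylated RNA was done at 0, 24 and 48 h after the switch to differentiation medium, called day 0, 1 and 2, with 3 samples in each of the 18 groups and 54 in all. The question asked here of each line is how the Yap and Taz targets stood beside wildtype on the same day. Of each pair of days it is how they moved as the line differentiated. The switch of medium also raised the temperature and left out γ-interferon, so the step from day 0 to day 1 takes in these changes too. The transduced lines were selected and expanded in puromycin, which the wildtype and EMD-/y lines were not. The dose differed between them, lowest for +EMD, higher for Q133H and highest for S54F and Δ95–99. Seeding density differed too, with 232000 cells in each well of the wildtype and EMD-/y lines and 297000 for the vector and mutant lines (none is given for +EMD), so that in the transduced lines the transgene, the drug and, where it differed, density cannot be told apart. The wildtype and EMD-/y lines had the same density and neither was in puromycin. Cell density is itself an input to the Hippo pathway. The vector-only line is not analysed here, each line stands for 1 derivation, and the study describes 3 technical replicates for each of 2 biological replicates, while the labels number the samples 1 to 3.

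Each table gives 1 value per gene for each of its 2 groups, the authors' normalised read count for the group, with no value for a single sample. Differences below are therefore sizes without a replicate error, and no test was made of any of them. A difference of at least 2-fold, in a gene whose higher group value was at least 10, is the size counted throughout, for the 10 targets beside the share of all genes that differed as much in the same table. A log2 ratio is that of the 2 group values of 1 table, each with 1 added, and a level is the group value after the tables were put on 1 common scale, given as the median over the tables that hold the group. The values are not plain means. No gene was listed at 0, the lowest value was between 0.129 and 0.155, and in each table between 131 and 231 genes shared 1 identical pair of low values. In the table of EMD-/y against wildtype on day 0, for example, 177 genes carried 0.164 and 0.178, close in sum to the 0.333 that 1 read in 3 libraries would give. Ratios of low or variable genes may therefore be understated. As these were bulk samples, fewer cells of a type and less RNA per cell cannot be told apart.

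How far the tables agree on 1 group is the only check that the values allow. The tables rest on the same samples of a group, so this agreement holds no replicate error. Over all its tables a group's level varied by at most 0.066 on the log2 scale for Ccn1, Ankrd1, Amotl1, Amotl2, Ajuba, Axl, F3 and Nuak2. It varied by up to 0.205 for Crim1 and by up to 0.948 for Ccn2, whose S54F level on day 1 was 364 in 1 table and 703 in another. The same step can also be read in 2 ways, as the move of a line's log2 ratio to wildtype from 1 day to the next, or as the line's own move between days less that of wildtype. The 2 readings were apart by at most 0.09 for the 8 genes that varied least between tables. They were apart by up to 0.3 for Crim1 and by up to 0.81 for Ccn2, against a 95th percentile of 0.0784 over all genes. All sizes given for Ccn2 carry that uncertainty between tables, and the replicate error of all the targets is unknown.

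The wildtype line stood apart from the other 5 lines in genes beyond Emd. At least 8-fold lower than wildtype in all 15 comparisons were 61 genes, 46 of them predicted transcripts without a name, with Emd itself and Ifi202b, Gbp2b and H2-Q1 among the named ones, and 12 genes were at least 8-fold higher, with Ifi211, Rpl26, Six2 and the Y-linked Eif2s3y among them. The labels do not say whether the wildtype and EMD-/y cells came from mice of 1 strain and sex. None of the 10 targets was in either set. Endogenous Emd had levels of 1159 to 1887 in wildtype and 0.315 to 2.76 in the other 5 lines, +EMD included, so Emd was near 0 in the null line and in all 4 lines made from it. Whether the read counting would see the emerin that was put in is not given in the sources used here. The paper's western blots of proliferating cells showed emerin protein in all 4 transduced lines. By its account the amount was similar to wildtype in each of them except Q133H, which had more. The low Emd values of these lines are thus not a measure of their emerin protein. The 15 comparisons share the wildtype groups of their day, and they are set out again against EMD-/y further on. Of markers for other cell types, those of myogenic cells summed to between 33843 and 219575 in a group and those of endothelial cells, macrophages and Schwann cells to at most 35.5, with Sox10 listed in no group. Fibroblast markers summed to between 1094 and 19670, with Col1a1 at 577 to 19540, Twist2 at 24.3 to 595, Pdgfra at 11 to 68.2, Dcn at 2.86 to 56.1 and Lum at 0.142 to 0.493. Adipocyte markers reached 107, all but a little of it Pparg.

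Promoter sequence was read for the targets because Tead binding is the step they are thought to share. RefSeq promoters of GRCm38.p6, the build (mm10) that the files use, were held for 8 of the 10 genes, from 250 bases before to 50 bases after the start, with no entry for Ccn2 and Nuak2. The start is the 1 that the promoter entry uses. For Amotl2, Axl and Crim1 it lies inside the gene bounds given further on, so that other transcripts of these genes start upstream of it. The core of the Tead motif, GGAATG on either strand (CATTCC on the other), was in 6 of the 8 promoters, those of Ccn1, Ankrd1, Amotl2, Ajuba, Axl and Crim1, and not in this window of Amotl1 or F3. The same 6 letters were in 14.6% of all 27025 promoters of that length. The CArG box bound by SRF, the actin-controlled factor whose targets overlap those of Yap, was in 0 of the 8 and in 1.57% of all promoters. The 250 bases before the start are shown for Ccn1 (chr3:145649986-145650235, minus strand) and for Ankrd1 (chr19:36119845-36120094, minus strand), with the motif in capitals. Both are used as Yap readouts, and Ccn2, another, has no promoter entry. Its first base lies 103 bases before the start in Ccn1, and 210 and 123 bases before it in Ankrd1.
Ccn1: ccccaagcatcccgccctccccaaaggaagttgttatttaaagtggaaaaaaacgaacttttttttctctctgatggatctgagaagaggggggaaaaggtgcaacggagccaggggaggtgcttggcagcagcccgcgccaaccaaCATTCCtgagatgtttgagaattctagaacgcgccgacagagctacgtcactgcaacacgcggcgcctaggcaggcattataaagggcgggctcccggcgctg
Ankrd1: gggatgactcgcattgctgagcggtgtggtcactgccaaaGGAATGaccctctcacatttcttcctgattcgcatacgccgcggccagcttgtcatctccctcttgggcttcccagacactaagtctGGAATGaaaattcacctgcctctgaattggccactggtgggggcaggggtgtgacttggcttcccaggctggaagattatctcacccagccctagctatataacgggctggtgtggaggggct

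For the other 4 promoters the 30 bases around each match are shown, to let the flanks be compared. They are Amotl2 (chr9:102717727-102717756, plus strand, 65 bases before the start), Ajuba at 2 places (chr14:54577830-54577859 and chr14:54577808-54577837, minus strand, 186 and 164 bases before), Axl (chr7:25788949-25788978, minus strand, 233 bases before) and Crim1 (chr17:78200157-78200186, plus strand, 79 bases before). A match is a run of letters and not a shown binding site.
Amotl2: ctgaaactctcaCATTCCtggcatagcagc
Ajuba, first: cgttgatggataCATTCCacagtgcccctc
Ajuba, second: tgcccctccgcgCATTCCaactgtaaacaa
Axl: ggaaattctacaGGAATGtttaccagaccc
Crim1: agggcgggggggGGAATGaggtaggatggg

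In dividing wildtype progenitors the 10 genes differed widely in abundance. Per kilobase of transcript, the wildtype day 0 value was highest for Ankrd1 at 9627 and Ccn1 at 5871. Axl at 2734, Amotl2 at 1830 and Ccn2 at 1678 formed a middle group, and Ajuba stood at 569. F3 at 278, Amotl1 at 215, Nuak2 at 152 and Crim1 at 115 were lowest. The lowest group value of any of them was 26.7, for F3.

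Ccn1 and Ccn2 encode secreted matricellular proteins of the CCN family, which bind integrins and growth factors in the matrix, and both are textbook readouts of Yap. Ccn1 (chr3:145646971-145649985) had levels of 11906, 6632 and 3075 in wildtype on days 0, 1 and 2. EMD-/y gave 11740, 7388 and 4266. In both lines Ccn1 was lower on each later day, and EMD-/y ended above wildtype.
The +EMD line had 8521, 3983 and 2381, and S54F had 5967, 4867 and 2632. In Δ95–99 the levels were 11766, 7918 and 6908, and in Q133H they were 11164, 8853 and 7609. The lines with Δ95–99 and Q133H started close to wildtype and kept most of their Ccn1, while +EMD and S54F started lower and ended below wildtype. On day 2 Ccn1 was 2.24-fold higher than wildtype in Δ95–99 (log2 ratio 1.17) and 2.47-fold higher in Q133H (1.31), sizes reached by 10.8% and 13.4% of all genes in those tables. S54F on day 0, at a log2 ratio of -0.99, was just short of 2-fold.

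Ccn2 (chr10:24595442-24598683) had the steepest course of the 10. Its wildtype levels were 4057, 669 and 194 on days 0, 1 and 2, and those of EMD-/y were 7298, 1343 and 546. In +EMD they were 1935, 115 and 258. Day 1 was below day 0 in each of these lines, and in +EMD day 2 was above day 1.
S54F had 4796, 416 and 211, Δ95–99 had 4715, 213 and 367, and Q133H had 4037, 730 and 512. From day 0 to day 1 Ccn2 was lower by at least 2-fold in all 6 lines, which share no samples with one another. The difference was 3.36-fold in EMD-/y, 4.15-fold in wildtype, 4.43-fold in Q133H, 6.7-fold in S54F, 16.5-fold in +EMD and 22-fold in Δ95–99. In +EMD 0.106% and in Δ95–99 0.0826% of all genes were as far down. Taken relative to wildtype, the +EMD step was -1.18 on the log2 scale from the tables against wildtype and -1.99 from the tables between days, and the Δ95–99 step was -1.76 and -2.40. From day 1 to day 2 Ccn2 was lower again in wildtype (2.79-fold) and EMD-/y (2.12-fold), while in +EMD it was 2.27-fold higher on day 2 than on day 1 and in Δ95–99 its log2 ratio was 0.87. The +EMD value is 0.94 on the log2 scale, short of 2-fold, when both groups are scaled to equal totals. Against wildtype on day 1, Ccn2 was 4.58-fold lower in +EMD and 2.92-fold lower in Δ95–99, whereas on day 2 it was 2.02-fold higher in EMD-/y and 2.61-fold higher in Q133H. The EMD-/y value is 0.96 on the log2 scale with equal totals.

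**Figure D1:**
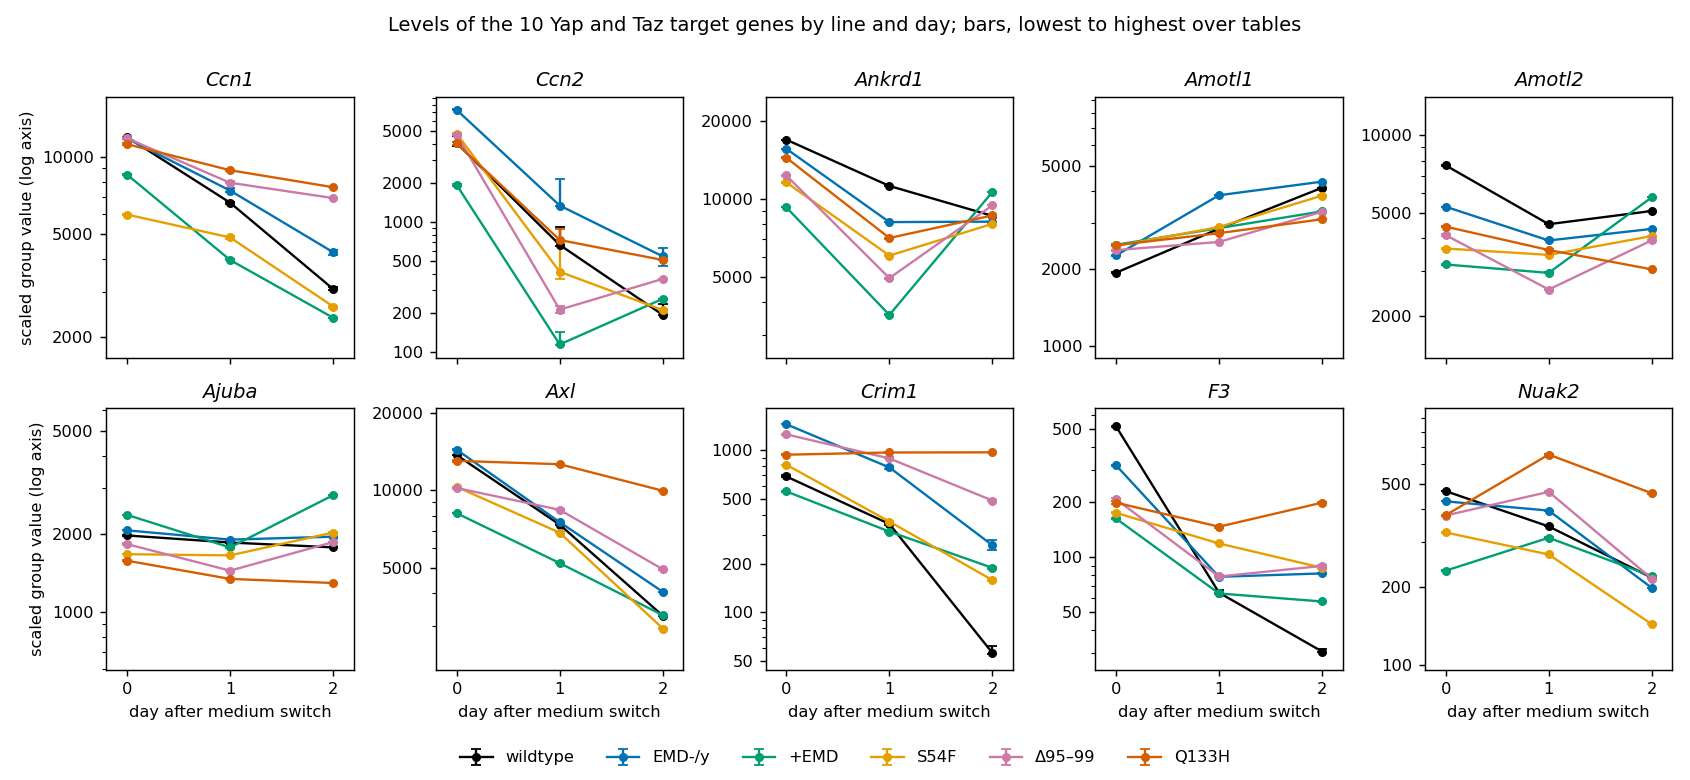
Level of each target (the authors' group value on the common scale, log axis, with its own range in each panel) on days 0, 1 and 2 in the 6 lines. Points are medians over the tables that hold the group and bars run from the lowest to the highest table, which show only for Ccn2 and, less, Crim1. Ccn2 is lower on day 1 than on day 0 in every line, and wildtype (black) ends lowest of all lines in Crim1 and F3.

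Ankrd1 (chr19:36111965-36119844) encodes a nuclear and sarcomeric ankyrin repeat protein of muscle that answers to stretch. Its levels in wildtype were 16991, 11254 and 8625 on days 0, 1 and 2. In EMD-/y they were 15677, 8159 and 8192, and in +EMD 9309, 3572 and 10681. Wildtype was lower at each step, EMD-/y at the first only, and +EMD was lower and then higher.
S54F had 11623, 6056 and 8034, Δ95–99 had 12360, 4956 and 9476, and Q133H had 14471, 7082 and 8660. The other lines were thus below wildtype on day 1 and near it on day 2, against the same wildtype samples of each day. The day 1 difference reached 2-fold in +EMD, 3.1-fold lower, and Δ95–99, 2.27-fold lower, and was -0.45, -0.88 and -0.68 on the log2 scale in EMD-/y, S54F and Q133H. On day 2 the log2 ratios lay between -0.10 and 0.31. Between days 0 and 1 Ankrd1 was 2.61-fold lower in +EMD, 2.46-fold lower in Δ95–99 and 2.03-fold lower in Q133H, and between days 1 and 2 it was 3-fold higher in +EMD.

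Amotl1, Amotl2 and Ajuba are targets that feed back on the pathway. The angiomotin-like proteins hold Yap at junctions and in the cytoplasm, and Ajuba is a LIM protein that binds the Lats kinases and restrains them. Of the 81 values these genes have in the 27 tables, 2 were at least 2-fold apart, both of Amotl2 on day 0. The share of all genes as far apart ran from 7.42% (EMD-/y against wildtype, day 1) to 33.5% (Q133H against wildtype, day 2). The tables share groups, so the 81 values are not independent of one another. Amotl1 (chr9:14541966-14662974) was the one target that was higher on each later day in each line. Its levels on days 0 and 2 were 1927 and 4108 in wildtype and 2248 and 4336 in EMD-/y. In the 4 transduced lines they were between 2357 and 2472 on day 0 and between 3103 and 3830 on day 2. No single step of Amotl1 reached 2-fold, with log2 ratios of 0.12 to 0.77 between days.

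Amotl2 (chr9:102717091-102733418) was highest in wildtype on days 0 and 1. The wildtype levels were 7668, 4542 and 5109 on the 3 days, beside 5307, 3929 and 4356 in EMD-/y. In +EMD they were 3173, 2945 and 5771, and in S54F 3658, 3456 and 4086. Wildtype was above the others at the start, and +EMD passed it on day 2.
Δ95–99 had 4123, 2540 and 3934, and Q133H had 4445, 3609 and 3039. On day 0 Amotl2 was 2.42-fold lower than wildtype in +EMD and 2.1-fold lower in S54F, where the difference was in the lowest 8.04% and 5.65% of all genes. The log2 ratios of the other lines on day 0 were -0.53 in EMD-/y, -0.88 in Δ95–99 and -0.77 in Q133H. Ajuba (chr14:54567469-54577661) had levels from 1291 in Q133H on day 2 to 2821 in +EMD on day 2 and log2 ratios to wildtype of -0.48 to 0.67.

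Axl, Crim1 and F3 encode proteins of the cell surface. Axl is a receptor tyrosine kinase of the TAM family, Crim1 a transmembrane protein with cysteine-rich repeats that binds bone morphogenetic proteins, and F3 is tissue factor, the receptor that starts blood clotting. Axl (chr7:25756500-25788924) had levels of 13705, 7376 and 3279 in wildtype on days 0, 1 and 2 and 14379, 7540 and 4056 in EMD-/y. In +EMD they were 8169, 5238 and 3295, in S54F 10330, 6866 and 2927, and in Δ95–99 10225, 8415 and 4957. Q133H stood out with 13013, 12630 and 9974. Axl was lower on each later day in each line, least so in Q133H, and was 3.02-fold higher there than in wildtype on day 2 (log2 ratio 1.59, with 10.2% of all genes as high). Between days 1 and 2 it was 2.25-fold lower in wildtype and 2.34-fold lower in S54F.

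Crim1 (chr17:78200233-78376592) differed most from wildtype of the 10 genes. In wildtype its levels were 689, 351 and 56.1 on days 0, 1 and 2. In EMD-/y they were 1446, 783 and 259, and in Δ95–99 1252, 890 and 489. Q133H held the same level throughout, with 938, 968 and 970.
In +EMD the levels were 557, 315 and 188 and in S54F 814, 363 and 158. On day 2 no line came near the low wildtype level, and the lines ranked from S54F and +EMD through EMD-/y and Δ95–99 to Q133H. Within the day 2 tables Crim1 was 17-fold higher than wildtype in Q133H, 8.49-fold in Δ95–99, 3.81-fold in EMD-/y, 3.31-fold in +EMD and 2.79-fold in S54F. Those 5 comparisons have the same wildtype samples, where Crim1 was 48.4 to 54.3 in value. The share of all genes as high as Crim1 was 1.23% in EMD-/y, 1.46% in Δ95–99, 0.846% in Q133H, 2.93% in S54F and 4.8% in +EMD. On day 1 it was 2.72-fold higher in Q133H, 2.51-fold in Δ95–99 and 2.19-fold in EMD-/y, beside log2 ratios of -0.14 in +EMD and 0.06 in S54F. On day 0 only EMD-/y, 2.06-fold higher, reached 2-fold. From day 1 to day 2 Crim1 was 5.89-fold lower in wildtype, 2.74-fold in EMD-/y and 2.25-fold in S54F, while the log2 ratio was -0.71 in +EMD and -0.85 in Δ95–99.

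F3 (chr3:121723537-121735052) was on opposite sides of wildtype at the start and at the end. Its levels in wildtype were 521, 64 and 30.5 on days 0, 1 and 2. In EMD-/y they were 319, 78.2 and 81.6, and in +EMD 163, 63.4 and 57.3. Wildtype went from the highest level of the 6 lines on day 0 to the lowest on day 2.
S54F had 175, 119 and 87.6, Δ95–99 had 208, 78.5 and 89.7, and Q133H had 199, 147 and 199. On day 0 F3 was 3.17-fold lower than wildtype in +EMD, 2.56-fold in Q133H, 2.45-fold in Δ95–99 and 2.95-fold in S54F, with a log2 ratio of -0.70 in EMD-/y. On day 2 it was 6.4-fold higher in Q133H, 2.87-fold in Δ95–99, 2.74-fold in S54F and 2.53-fold in EMD-/y, with a log2 ratio of 0.89 in +EMD. The wildtype course was the steepest, with F3 7.81-fold lower on day 1 than on day 0, a size reached by 0.811% of all genes, against 3.91-fold in EMD-/y, 2.53-fold in Δ95–99 and 2.51-fold in +EMD. In S54F and Q133H that step was -0.54 and -0.40 on the log2 scale.

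Nuak2 (chr1:132316125-132333488) encodes a kinase of the AMPK-related family that raises actomyosin tension and in turn sustains Yap activity. Its levels on days 0, 1 and 2 were 471, 344 and 218 in wildtype, 430, 396 and 199 in EMD-/y and 232, 311 and 221 in +EMD. S54F had 326, 268 and 144, and Δ95–99 had 379, 468 and 216. In Q133H Nuak2 was 380, 652 and 462, and this line was the highest of the 6 on days 1 and 2. Against wildtype Nuak2 was 2.03-fold lower in +EMD on day 0 and 2.09-fold higher in Q133H on day 2, although 17.1% of all genes were as high in the latter table. Between days 1 and 2 it was 2.15-fold lower in Δ95–99, and its log2 ratio was between -0.98 and -0.48 in the other lines.

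In no comparison with wildtype did all 10 targets lie on 1 side. On day 0 at least 2-fold from wildtype were 1 of the 10 in EMD-/y (Crim1, higher), 4 in +EMD (Ccn2, Amotl2, F3 and Nuak2, lower), 2 in S54F (Amotl2 and F3, lower), 1 in Δ95–99 and 1 in Q133H (F3, lower, in both). Of all genes, 8.77%, 17%, 11.9%, 12.4% and 14.8% were as far from wildtype in the same 5 tables. Taken by direction, 4.97% of all genes were 2-fold higher in EMD-/y, and 10.9%, 6.11%, 6.75% and 8.46% were 2-fold lower in the other 4 lines in turn. Counts of 1 or 2 in 10 are near these shares, and the 4 in +EMD stood above its share. The median log2 ratio of the 10 was 0.02 in EMD-/y, -0.81 in +EMD, -0.47 in S54F, -0.20 in Δ95–99 and -0.15 in Q133H, where the median of all genes was within 0.004 of 0.

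On day 1 the counts were 1 of 10 in EMD-/y (Crim1, higher), 2 in +EMD (Ccn2 and Ankrd1, lower), 0 in S54F, 3 in Δ95–99 (Crim1 higher, Ccn2 and Ankrd1 lower) and 2 in Q133H (Crim1 and F3, higher). The shares of all genes were 7.42%, 19.6%, 12%, 20.9% and 24.1%, and 4.61% were 2-fold higher in EMD-/y, 10.7% lower in +EMD, 8.84% higher and 12.1% lower in Δ95–99 and 9.49% higher in Q133H. The counts are near those shares. Median log2 ratios of the 10 were 0.18, -0.31, -0.26, 0.01 and 0.23 in that order, beside all-gene medians between -0.012 and -0.005.
On day 2 the counts were 3 in EMD-/y (Ccn2, Crim1 and F3), 1 in +EMD (Crim1), 2 in S54F (Crim1 and F3), 3 in Δ95–99 (Ccn1, Crim1 and F3) and 6 in Q133H (Ccn1, Ccn2, Axl, Crim1, F3 and Nuak2). All were higher than wildtype, where 4.77%, 10.7%, 5.87%, 13.1% and 18% of all genes were 2-fold higher and 7.63%, 18.4%, 10.6%, 22% and 33.5% were 2-fold apart in either direction. The median of the 10 was 0.22, 0.24, -0.10, 0.36 and 1.18, the last of these in Q133H. In Q133H the 3 feedback genes were on the other side, with log2 ratios of -0.40 for Amotl1, -0.75 for Amotl2 and -0.45 for Ajuba.

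**Figure D2:**
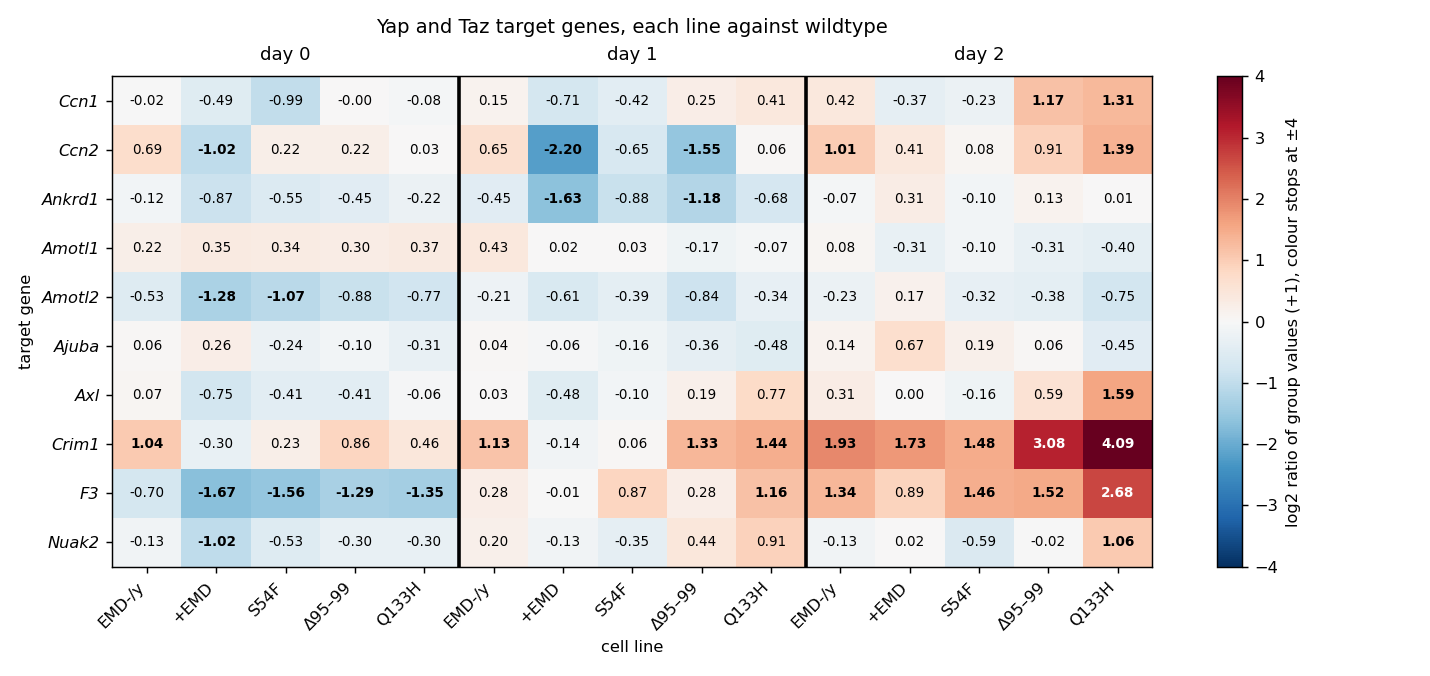
Log2 ratio of the group values (1 added) of each line to wildtype for the 10 targets, with days 0, 1 and 2 in blocks of 5 lines. Red is higher than wildtype and blue lower, and bold marks at least 2-fold. F3 is blue on day 0 and red on day 2, and Crim1 reaches 4.09 in Q133H on day 2.

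**Figure D3:**
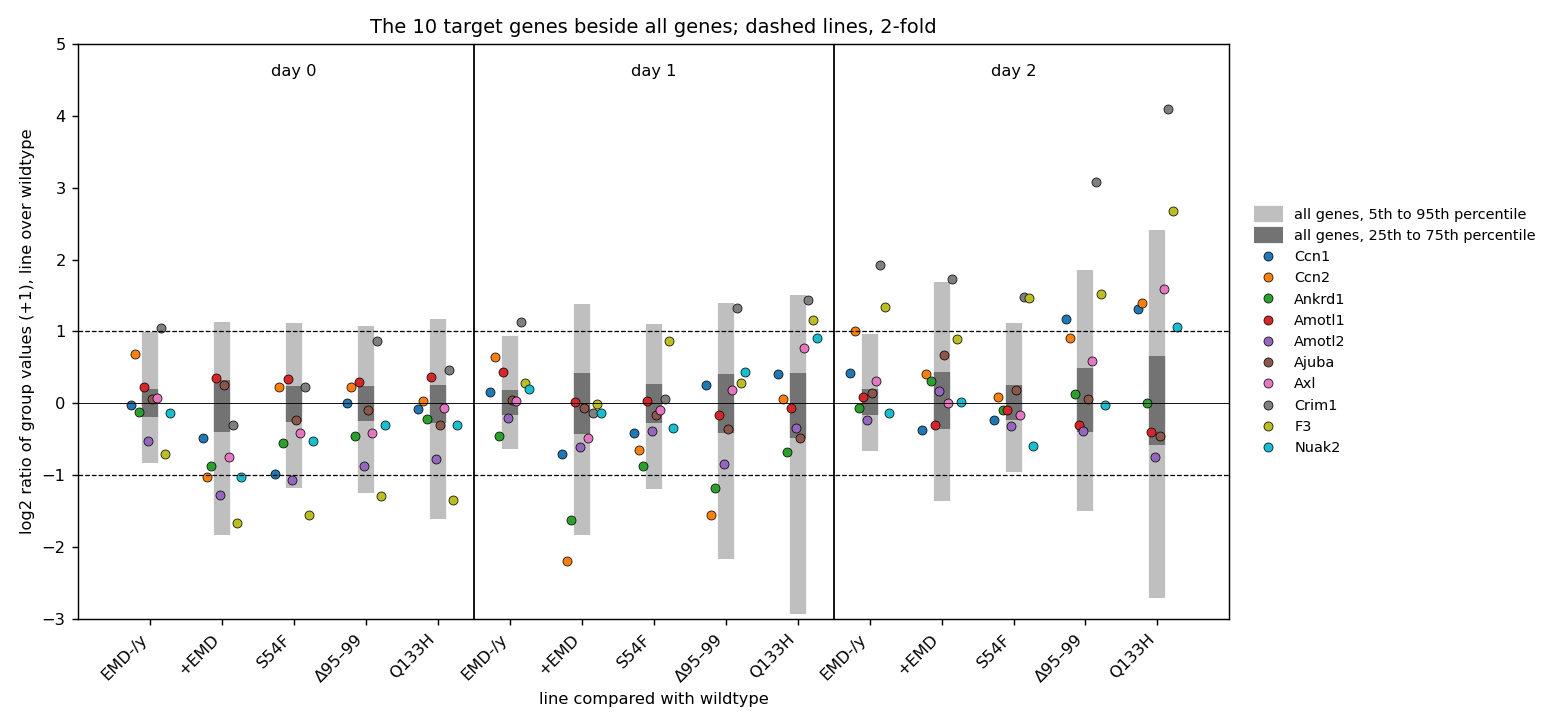
Log2 ratio to wildtype of the 10 targets (points) in the 15 comparisons, beside the 25th to 75th percentiles (dark bars) and the 5th to 95th percentiles (light bars) of all genes with a value of at least 10. Of the 150 points 136 lie inside the light bars, and Crim1 on day 2 lies above the 95th percentile in all 5 lines, which share 1 wildtype group.

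Between days 0 and 1 most targets were lower on the later day in every line, and between days 1 and 2 this differed between lines. From day 0 to day 1 at least 2-fold lower were 2 of 10 in wildtype (Ccn2 and F3), 2 in EMD-/y (the same pair), 4 in +EMD (Ccn1, Ccn2, Ankrd1 and F3), 2 in S54F (Ccn2 and Crim1), 3 in Δ95–99 (Ccn2, Ankrd1 and F3) and 2 in Q133H (Ccn2 and Ankrd1). None was 2-fold higher. Of all genes 10.3%, 9.42%, 6.93%, 7.19%, 6.69% and 6.37% were 2-fold lower in those tables, and the either-way shares were 22.8%, 21.4%, 17.3%, 16.6%, 14% and 12.1%. The median of the 10 was -0.80 in wildtype, -0.75 in EMD-/y, -0.73 in +EMD, -0.41 in S54F, -0.49 in Δ95–99 and -0.25 in Q133H, on a log2 scale where the all-gene medians were between -0.016 and 0.001.

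From day 1 to day 2 the counts changed with the scaling of the tables more than at the other step. In wildtype 5 of the 10 were at least 2-fold lower (Ccn1, Ccn2, Axl, Crim1 and F3), beside 11.9% of all genes, and the median of the 10 was -0.84. In EMD-/y 2 were lower (Ccn2 and Crim1), beside 11% of all genes, and in S54F 2 (Axl and Crim1), beside 11.1%, with medians of -0.37 and -0.59. In +EMD none was lower and 2 were higher (Ccn2 and Ankrd1), beside 11% of all genes higher, and the median was 0.04. Δ95–99 had 1 lower (Nuak2), beside 5.24% of all genes, and Q133H had 0, where 10.8% of all genes were 2-fold apart, with medians of 0.28 and -0.14. In either direction the shares of all genes were 19.9% in wildtype, 18.6% in EMD-/y, 20.5% in +EMD, 20.5% in S54F and 14.2% in Δ95–99. In Q133H all 10 lay between -0.50 and 0.44 over this step. With both groups of a table scaled to equal totals, 5 were lower in wildtype, 4 in EMD-/y (Axl and Nuak2 added), 5 in S54F (Ccn1, Ccn2 and Nuak2 added), 0 in +EMD, 1 in Δ95–99 and 0 in Q133H, beside 15.6%, 15.9%, 17%, 15.3%, 7.49% and 4.63% of all genes. The median gene was then at -0.19, -0.25, -0.27, -0.24, -0.14 and 0 in those lines.

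**Figure D4:**
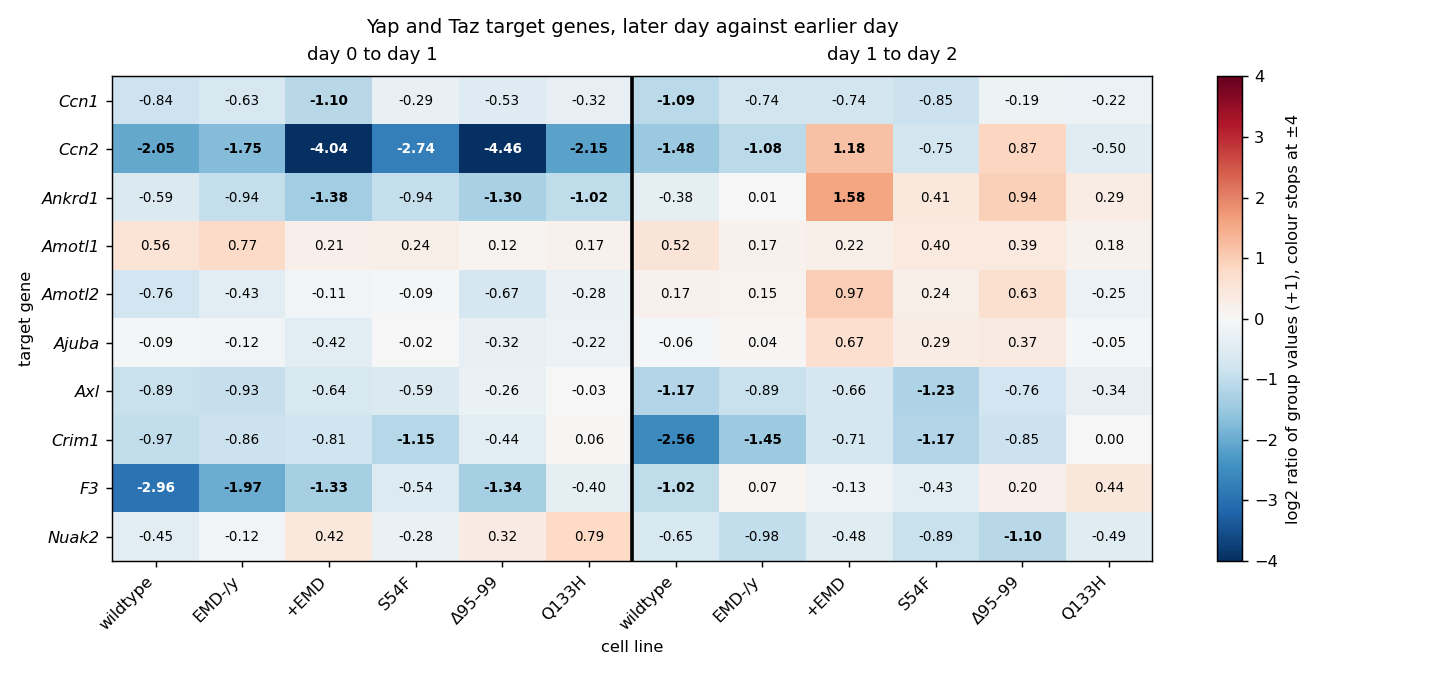
Log2 ratio of the later to the earlier day (group values with 1 added) for the 10 targets in the 6 lines, with bold for at least 2-fold and colours that stop at 4 in either direction. Ccn2 is the 1 gene in bold in all lines for day 0 to day 1, down to -4.46 in Δ95–99, and the wildtype column for day 1 to day 2 has 5 genes in bold.

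Set against EMD-/y, the line they were made from, the transduced lines gave other counts. This comparison was added after the values were seen, rests on levels put on the common scale, and leaves the wildtype groups out apart from the scaling. On day 0, 2 of the 10 were at least 2-fold lower in +EMD (Ccn2, log2 ratio -1.91, and Crim1, -1.37), where 12.8% of all genes were 2-fold apart and 9.6% lower, and none in S54F, Δ95–99 or Q133H, where 6.06%, 9.09% and 12.3% were. Against EMD-/y, F3 on day 0 had log2 ratios of -0.96, -0.86, -0.61 and -0.68 in +EMD, S54F, Δ95–99 and Q133H. None of the 4 reached 2-fold, while all 4 had done so beside wildtype.
On day 1, 3 were lower in +EMD (Ccn2, -3.54, Ankrd1, -1.19, and Crim1, -1.31), 2 in S54F (Ccn2, -1.69, and Crim1, -1.11), 1 in Δ95–99 (Ccn2, -2.65) and 0 in Q133H. Of all genes 10%, 5.26% and 11.2% were 2-fold lower in the first 3 of these lines, and 15.5%, 7.63%, 17% and 20.8% were 2-fold apart in the 4. Ccn2 was the gene lowest beside EMD-/y in each of the 4 lines on that day, with -0.88 in Q133H, and the 4 values share the EMD-/y group, whose day 1 level differed between tables from 1334 to 2147. From the lowest and highest tables the S54F value on day 1 ran from -2.56 to -0.92. On day 2, Ccn2 was lower in +EMD (-1.08) and S54F (-1.37). From the lowest and highest tables of each group the +EMD value ran from -1.30 to -0.83, which spans 2-fold, and the S54F value from -1.62 to -1.09. In these lines 6.42% and 2.87% of all genes were 2-fold lower and 14.5% and 4.45% were 2-fold apart. Δ95–99 had none past 2-fold, beside 19.2% of all genes. Q133H had 4 higher, Axl at 1.3, Crim1 at 1.90, F3 at 1.28 and Nuak2 at 1.21, where 16.5% of all genes were 2-fold higher and 31.6% were 2-fold apart.

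Transcripts of Yap and Taz themselves differed by less than 2-fold between groups of the same day. Yap1 had levels between 2377 and 3030 over all 18 groups. Wwtr1, which encodes Taz, had 3579, 4926 and 6208 in wildtype on days 0, 1 and 2, and in Q133H 5737, 4957 and 5347. The log2 ratio of Wwtr1 to wildtype was 0.69 in Q133H on day 0 and between -0.46 and 0.05 in the other 14 comparisons. Transcript levels do not show how much Yap or Taz is in the nucleus.
Among the DNA-binding partners, Tead1 had levels of 5092 to 9161 and Tead2 of 1364 to 3224. Tead4, the member that MyoD is known to switch on in differentiating muscle, had 675, 2558 and 5024 in wildtype on days 0, 1 and 2. It had 479, 617 and 2473 in Δ95–99 and 456, 311 and 848 in Q133H, with log2 ratios to wildtype of -2.05 and -3.05 on day 1 and -1.02 and -2.51 on day 2 in those lines. Tead3 was lower than wildtype on day 0 in all the other lines. Its log2 ratios were -1.31 in S54F, -1.04 in Δ95–99 and -1.0 in Q133H, and its levels were 825 in EMD-/y and 834 in +EMD beside 1303 in wildtype.

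Of 27 Hippo pathway genes, at least 2-fold higher and lower than wildtype were 3 and 1 in EMD-/y, 2 and 2 in +EMD, 2 and 3 in S54F, 2 and 2 in Δ95–99 and 1 and 1 in Q133H on day 0. On day 1 the counts were 3 and 0, 2 and 2, 2 and 0, 1 and 2, and 1 and 4, and on day 2 they were 2 and 0, 3 and 0, 3 and 0, 1 and 3, and 1 and 4, in the same order of lines. Both directions together were 7.41% to 18.5% of the list, beside 8.77% to 17% of all genes on day 0, 7.42% to 24.1% on day 1 and 7.63% to 33.5% on day 2. Median log2 ratios of the list were between -0.16 and 0.12. Wwc1, or Kibra, an upstream activator of the Lats kinases and itself a Yap target, had a log2 ratio to wildtype between 3.02 and 3.19 in the 5 lines on day 0, all with the same wildtype samples, and of 0.60 in Δ95–99 and Q133H on day 2. Dchs1, a protocadherin at the head of the pathway, had log2 ratios of 2.03, 4.16, 2.74, 1.69 and 0.02 on day 0 in EMD-/y, +EMD, S54F, Δ95–99 and Q133H. Vgll2, a muscle partner of Tead factors, was at -3.67 in Δ95–99 and -4.01 in Q133H on day 1 and at 1.26 in EMD-/y.

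A further 20 genes often listed as Yap and Taz targets gave a mixed picture as well. Counts of at least 2-fold higher and lower than wildtype were 4 and 0 in EMD-/y on each of the 3 days, where 4.97%, 4.61% and 4.77% of all genes were higher. In Q133H they were 4 and 1 on day 0, 6 and 4 on day 1 and 6 and 5 on day 2, beside 6.31%, 9.49% and 18% of all genes higher and 8.46%, 14.6% and 15.5% lower. The other lines had 1 to 5 higher and 0 to 4 lower, beside 5.61% to 13.1% of all genes higher and 4.73% to 12.1% lower. Apart from Wwc1, the genes of this list with the greatest distance from wildtype on day 1 in Q133H were Tgfb2, a growth factor (log2 ratio -2.87), Ccdc80, a matrix protein (-2.52), and Gadd45a, a stress-induced growth arrest gene (-2.29). Median log2 ratios of the list lay between -0.22 and 0.43.

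Transcripts of muscle differentiation and of the cell cycle differed between the lines as well. Of 16 muscle differentiation genes, 16 were at least 2-fold lower than wildtype on day 1 in Q133H (median log2 ratio -4.42), 14 in Δ95–99 (-3.24), 10 in +EMD (-1.29), 1 in S54F (-0.36) and 0 in EMD-/y (0.11), beside 14.6%, 12.1%, 10.7%, 6.38% and 2.81% of all genes lower in those tables. Higher on that day were 0 in Q133H, 0 in Δ95–99, 1 in +EMD, 2 in S54F and 2 in EMD-/y. Of all genes 9.49%, 8.84%, 8.93%, 5.62% and 4.61% were higher in those tables. On day 2, 15 of the 16 were lower in Q133H, 9 in Δ95–99, 4 in +EMD, and 0 in S54F and EMD-/y. Higher were 0, 0, 2, 3 and 2 in the same order, with medians of -2.46, -1.04, -0.47, -0.07 and 0. Of all genes 15.5%, 8.91%, 7.68%, 4.73% and 2.86% were lower on day 2, and 18%, 13.1%, 10.7%, 5.87% and 4.77% higher. Muscle creatine kinase, Ckm, had day 2 levels of 9512 in wildtype, 8695 in EMD-/y, 9416 in S54F, 4775 in +EMD, 3047 in Δ95–99 and 896 in Q133H. Of 11 cell cycle genes, 10 were at least 2-fold higher than wildtype on day 2 in Δ95–99 and in Q133H, 9 in +EMD, 7 in S54F and 6 in EMD-/y, beside 13.1%, 18%, 10.7%, 5.87% and 4.77% of all genes higher. None of the 11 was 2-fold lower on that day. Mki67, a marker of cycling cells, had levels of 80.2 in wildtype, 417 in EMD-/y, 373 in S54F, 2746 in +EMD, 2475 in Δ95–99 and 984 in Q133H on that day. On day 1, 5 of the 11 cell cycle genes were at least 2-fold higher in Δ95–99, 4 in Q133H and in +EMD, and 0 in S54F and EMD-/y. None was 2-fold lower, and the shares of all genes higher on day 1 are given above. The part of differentiation and of cell cycle exit in the target differences was not tested.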

How the data were processed

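The authors filtered reads with SOAPnuke, aligned them to mm10 with HISAT2 and compared groups with DESeq2, per the labels and the study's methods. Versions are not given in the sources used here. The deposited group values were taken as signal, a normalised read count per gene and group whose exact fitting is not stated, and no column of a single sample was used (0 columns). The tables also hold the authors' fold changes, p- and q-values and calls, which were not used. A test was planned only if values per sample were found, and none were. Each table listed 17215 to 17876 genes, 1475 to 1571 of them predicted, and the group values summed to between 16.7 M and 21.1 M. Read depth per sample is unknown. Gene numbers were matched to RefSeq symbols of GRCm38.p6 (99.8% to 99.9% of numbered genes).

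Log2 ratios were taken within a table after adding a pseudocount of 1, and counted where the fold was at least 2 and the higher value at least 10 (13118 to 13593 genes against wildtype or between days). Tables were joined on 1 scale by 1 offset each (-0.23 to 0.145 on the log2 scale, largest residual 0.0172 over 76 pairs of tables), fitted by least squares with pandas 2.3.3 and numpy 2.4.6. The ratio, filter and count steps were checked on simulated data, a check that did not cover the scaling step. Named were the 10 targets, Emd, Yap1, Wwtr1 and the Teads, up to 4 genes of each list with the greatest ratio in EMD-/y or Q133H against wildtype on day 1, and the 5 genes closest to Ccn2, of which 1 is not reported here. Other genes named in counts, and the markers Ckm, Myog, Mki67 and Ifi202b, were chosen after their values were seen. The targets and lists were chosen with earlier results of these data known. Alternatives tried were the pseudocount, the fold, equal totals, centring on the median gene and EMD-/y as reference.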

Additional observations from a re-analysis of the deposited data

Results flagged for a closer look

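Ccn2 was at least 2-fold apart in opposite directions over the same step in 2 lines. Its log2 ratio from day 1 to day 2 was 1.18 in +EMD and -1.48 in wildtype. This difference was not tested, since the tables give no value for single samples, and the +EMD value was 0.94 with equal totals.

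F3 was on opposite sides of wildtype at different days in 3 lines. In S54F its log2 ratio was -1.56 on day 0 and 1.46 on day 2. In Δ95–99 it was -1.29 on day 0 and 1.52 on day 2. In Q133H it was -1.35 on day 0, 1.16 on day 1 and 2.68 on day 2. These differences were not tested, and the lines share the wildtype groups, in which F3 had levels of 521, 64 and 30.5.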

How the results depend on the processing

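No paired analysis was possible because the tables hold 1 value per group and none per sample, and for the same reason leaving out each replicate, a count model and an interaction test were not run. Of the 59 target ratios past 2-fold, none changed sign with no pseudocount, a pseudocount of 10, equal totals or centring on the median gene. With a pseudocount of 10, 3 went under 2-fold (Nuak2 in +EMD on day 0, Ccn2 in EMD-/y on day 2 and F3 in wildtype from day 1 to day 2), and with equal totals 2 did (both Ccn2, at 0.96 in EMD-/y on day 2 and 0.94 in +EMD from day 1 to day 2), which left 1 target ratio higher from day 1 to day 2 in place of 2. With equal totals more were lower, 15 in place of 10 from day 1 to day 2 (5 in place of 2 in S54F and 4 in place of 2 in EMD-/y) and 16 in place of 15 from day 0 to day 1. The counts follow the fold chosen. Of 50 ratios to wildtype on day 0, 1 was higher and 8 lower at 2-fold, 3 and 14 at 1.5-fold, and 0 and 1 at 3-fold. On day 1 these were 4 and 4, 8 and 10, and 0 and 2. On day 2 they were 15 and 0 at 2-fold, with 6 higher at 3-fold and 2 lower at 1.5-fold. Of 60 ratios from day 0 to day 1, 0 were higher and 15 lower, with 2 and 29 at 1.5-fold and 8 lower at 3-fold. From day 1 to day 2 they were 2 and 10, 7 and 22 at 1.5-fold, and 0 and 1 at 3-fold. These ratios are not separate units, since each gene recurs and the lines share the wildtype group of a day. F3 gave 4 of the 8 lower on day 0. Crim1 gave 5 and F3 gave 4 of the 15 higher on day 2. The median share of all genes, in either direction, at 1.5-fold, 2-fold and 3-fold was 22.6%, 12.4% and 6.52% on day 0. It was 37.4%, 19.6% and 9.98% on day 1 and 34.4%, 18.4% and 9.6% on day 2. Between days it was 33.5%, 17% and 7.81% from day 0 to day 1, and 39.4%, 19.3% and 7.52% from day 1 to day 2. EMD-/y in place of wildtype for the 4 transduced lines was an alternative added after the data were seen. With it the count lower on day 0 was 2 in place of 8. On day 1 the count higher was 0 in place of 3 and the count lower 6 in place of 4. On day 2 the count higher was 4 in place of 12 and the count lower 2 in place of 0. The cause was not tested.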

Other observations

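Among 10017 genes with a mean value of at least 50, those with log2 ratios over the 27 tables closest to those of Ccn2 included Has2, which makes hyaluronan (mean absolute difference 0.78), Lox, which crosslinks collagen (0.80), Timp3 (0.81) and Timp1 (0.86), both inhibitors of matrix proteases. The median gene was 1.32 away. The nearest of the 10 targets were Ankrd1 at 0.92 and Ccn1 at 0.99, while Amotl1 at 1.39 and Crim1 at 1.38 were farther than the median gene. The tables share groups, so this likeness is a description over tables that are not independent.

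Of 12 genes known to answer to TGF-beta, 5 were at least 2-fold lower than wildtype on day 1 in +EMD and in Δ95–99, 4 in Q133H, 2 in S54F and 0 in EMD-/y, beside 10.7%, 12.1%, 14.6%, 6.38% and 2.81% of all genes in the same order of lines. Higher were 0, 1, 1, 0 and 2 of the 12, beside 8.93%, 8.84%, 9.49%, 5.62% and 4.61% of all genes. Postn, a matricellular protein, had log2 ratios of 1.16 in EMD-/y, -1.76 in +EMD, -2.07 in S54F, -2.69 in Δ95–99 and -3.38 in Q133H on that day, and Col1a1 had 0.92, -2.47, -1.08, -2.39 and -3.33. Of 18 genes under SRF and its actin-sensing partners, 6 were at least 2-fold lower in +EMD on day 1, 5 in Δ95–99, 4 in S54F and in Q133H and 0 in EMD-/y. In each of the 5 lines 1 was higher. The shares of all genes lower and higher are those given above for each line. Myl9, a smooth muscle myosin light chain, had a log2 ratio of -2.09 in +EMD, and so had Acta2, smooth muscle actin, in Q133H. On day 2 the SRF list had 2, 4, 5, 1 and 1 higher in +EMD, Δ95–99, Q133H, S54F and EMD-/y. It had 0, 1, 3, 0 and 0 lower. The TGF-beta list on day 2 had 0, 2, 4, 1 and 3 higher and 3, 3, 5, 1 and 0 lower. Of all genes 10.7%, 13.1%, 18%, 5.87% and 4.77% were higher and 7.68%, 8.91%, 15.5%, 4.73% and 2.86% lower. Ccn2 is a target of both pathways as well as of Yap.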
